A study of Mus musculus with 15 samples.

Results

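Tumours taken at the end of nintedanib treatment were compared with tumours taken at the end of vehicle treatment. Described are receptors, secreted factors, signalling genes and other functions outside 2 lists, of interferon and of cell cycle genes. A gene outside the interferon list may still respond to interferon. The comparison rests on the 4 arrays titled as nintedanib and the 3 titled as vehicle, 7 of the 15 arrays of the series, and the titles alone chose them. All tumours came from female MMTV-PyMT mice, whose mammary epithelium carries the polyomavirus middle T oncogene under the mouse mammary tumour virus promoter, a transgene that the controls share. The strain background, the vehicle, the length of treatment and the time of day of dissection are not given in the labels. Dosing began at 7 weeks of age, and nintedanib was given by oral gavage at 85 mg/kg per day. The 4 arrays of B20, a VEGF antibody given at 5 mg/kg intraperitoneally 2 times per week from the same age, and the 4 arrays of untreated T0 tumours serve below as side values and in the shared estimate of spread.

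Nintedanib is a small molecule that blocks the kinase domains of the VEGF, FGF and PDGF receptors, and also reaches the kinases Flt3, Lck, Lyn and Src. VEGF receptors on endothelium drive the growth of vessels, PDGF receptors sit on pericytes and fibroblasts, and FGF receptors are found on epithelium and stroma. A kinase inhibitor acts on the protein, and the arrays measure RNA in the whole tumour, so a difference may lie in the tumour cells or in the stroma.

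A level below is the log2 of a spot's signal over the 75th percentile of its array, so 0 is a signal equal to that percentile, and differences are nintedanib minus vehicle in log2 with the standard error of limma's fit. Levels of different genes come from different probes and cannot be ranked against each other. Luminal epithelial markers, which define the labelled tissue, were well above background: Krt18 read from 8.16 to 8.72 on the 7 arrays, Krt8 from 5.55 to 6.14 and the epithelial adhesion gene Epcam from 3.78 to 4.99. Raw median signals were 55 to 102 on the 15 arrays against local backgrounds of 19 to 26, and 3 of the nintedanib arrays and 2 of the vehicle arrays shared 1 slide, the rest a second. Probes well above background made up 65.5, 68.1, 63.8 and 63.2% on the nintedanib arrays and 65, 58.1 and 58% on the vehicle arrays. Fewer probes thus met this flag on vehicle replicates 2 and 3, which bears on statements below that rest on it. Nothing in the labels states that samples of 1 group are from different animals, and p-values therefore reflect the spread among these arrays alone, which may be technical. In whole tumours, fewer cells of a type and less RNA per cell cannot be told apart.

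No gene passed an adjusted p of 0.05 in limma between nintedanib and vehicle: 0% of 28041 genes were called in either direction, the lowest adjusted p was 0.197, and 1354 genes (4.83%) had an unadjusted p under 0.05. All values that follow are therefore differences that did not pass the test over all genes. A plainer count is used beside it, of genes whose 4 nintedanib values lie all above or all below the 3 vehicle values. Over all genes, 903 (3.22%) lay above without overlap and 1161 (4.14%) below. These shares are the background of every such count given for a list. The median difference over all genes was -0.009, and 48.9% of them were higher with nintedanib. The 39 lists of genes by function held 1336 measured members of 1528, with 756 higher (56.6%) and a median of 0.053. Of these members, 76 lay above without overlap and 37 below. Nintedanib against B20, a comparison without the vehicle arrays, gave 0 calls in limma too, with a lowest adjusted p of 0.518 and 2628 genes at an unadjusted p under 0.05.

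For none of the 12 kinases that nintedanib is known to inhibit did the nintedanib and vehicle arrays separate. Among the 12 VEGF, FGF and PDGF receptors and co-receptors, 6 were higher and 6 lower, none was without overlap, and the median of 0.004 turned negative under 3 of the 4 other scalings. Kdr, the main VEGF receptor of endothelium, read 3.42, 2.93, 3.68 and 3.59 with nintedanib and 3.14, 3.60 and 4.08 with vehicle. The groups overlap, with the highest vehicle array above every nintedanib array, and the difference was -0.20 ± 0.27 (SE; limma adjusted p = 0.999). Another Kdr probe differed by -0.57. Flt1, which binds VEGF with high affinity, read 0.35, 1.27, 0.32 and 0.25 against 0.51, 0.18 and 1.33, with 1 high array in each group. Flt4, the receptor of the lymphatic endothelium, was well above background on only 2 arrays of each group, and its difference of -0.43 had an SE of 0.90. Pdgfra differed by 0.10 ± 0.24 and Pdgfrb by -0.16 ± 0.26.

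The FGF receptors were split. Fgfr1 and Fgfr2 were higher with nintedanib by 0.25 ± 0.33 and 0.45 ± 0.25. Other probes differed by 0 and 1.03 for Fgfr1 and by 0.86 for Fgfr2. Fgfr3 read -0.51, 0.08, -0.23 and -0.76 with nintedanib and -0.14, 0.17 and 0.76 with vehicle. Its difference was -0.62 ± 0.28, with overlapping groups and an adjusted p of 0.999 in limma. Another Fgfr3 probe differed by 0.12, the mean of both by -0.25, and the first probe by -0.24 within slide 1, -1.51 within slide 2 and -0.37 without vehicle replicate 3. Of the other kinases the drug is known to reach, Lck differed by 0.08 ± 0.22, Lyn by 0.024 ± 0.26 and Src by -0.46 ± 0.57. Flt3, a receptor of dendritic cell and blood progenitors, read -3.87, -3.21, -3.07 and -3.04 against -3.84, -4.08 and -4.06. It was higher by 0.70 ± 0.28 (limma adjusted p = 0.975), a difference of 0.25 after normexp background correction. None of the 12 was called.

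**Figure D1:**
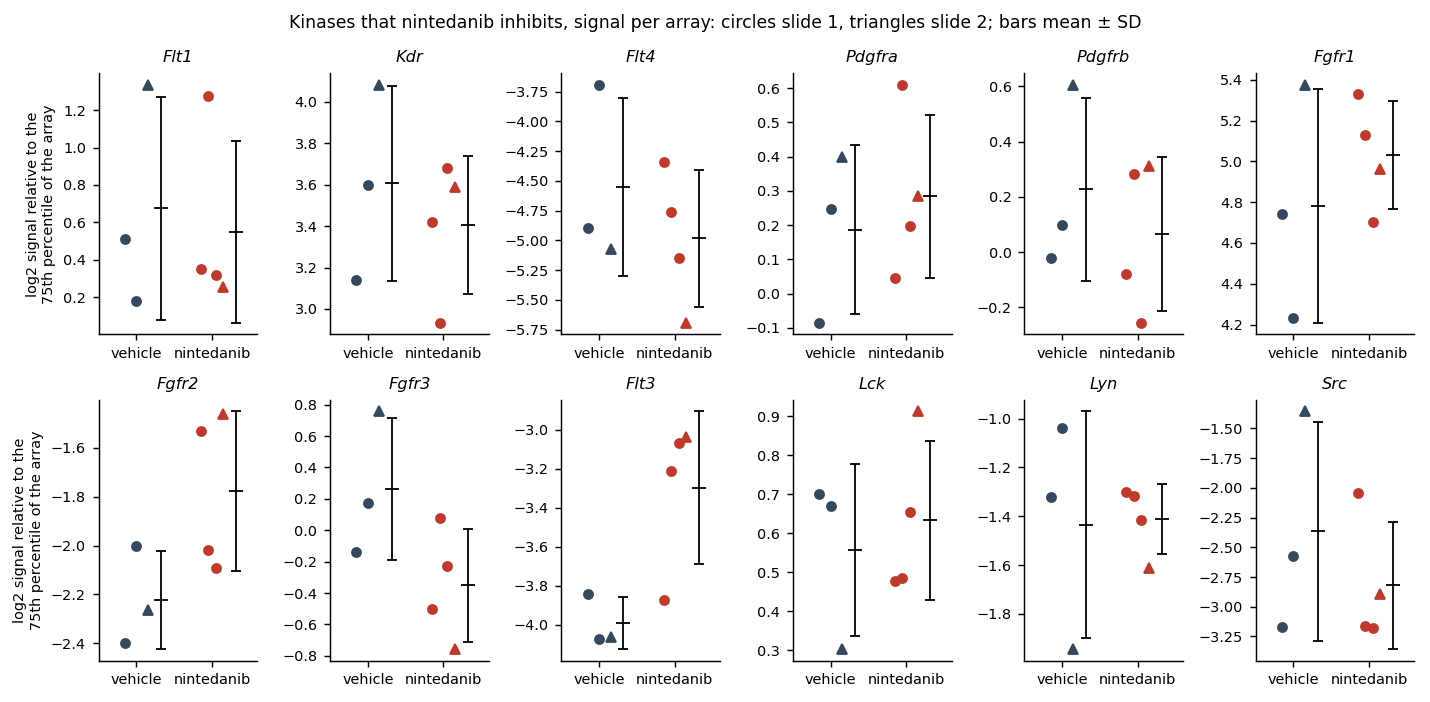
Signal of the 12 kinases that nintedanib is known to inhibit, on each vehicle array (dark) and nintedanib array (red), in log2 relative to the 75th percentile of the array; circles are slide 1, triangles slide 2, and bars are mean ± SD of 3 vehicle and 4 nintedanib arrays. The groups overlap in every panel, Fgfr3 (-0.62; another probe at 0.12) and Flt3 (0.70) included.

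Ligands of receptor tyrosine kinases leaned to higher values without any member standing clear. Of 42 measured growth factors 29 were higher, with a median of 0.148 (0.059 after normexp correction), and 0 lay above or below without overlap. Without vehicle replicate 2 the median was 0.007. Vegfa, the main vessel growth factor, read 2.79, 1.91, 1.04 and 1.45 against 1.44, 0.44 and 1.36, a difference of 0.72 ± 0.47 with its highest value on nintedanib replicate 1 (limma adjusted p = 0.999). It is named here as the ligand of the targeted receptors. Fgf10, a stromal growth factor for epithelium, read -5.52, -6.00, -4.19 and -3.31 against -7.20, -6.49 and -5.87. It was well above background on all 4 nintedanib arrays and on no vehicle array, and was at least 2.69-fold higher in the processed signal. The groups overlapped, and the Fgf10 difference was 0.26 after normexp correction. Bounds of this kind take, on each array of the dim group, the probe's signal or the faintest signal that still counted as well above background, whichever is brighter, and set their mean against that of the bright group. They hold for the processed signal only and do not allow for the spread among arrays. The differences after normexp correction, given beside them, are smaller.

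Among the 39 other receptor tyrosine kinases 19 were higher and 20 lower, with 1 member clear above and 1 clear below. Ptk7, a pseudokinase receptor of planar polarity and Wnt signalling, read 2.34, 2.04, 2.02 and 2.02 with nintedanib and 2.37, 2.73 and 3.33 with vehicle. All nintedanib values lay below, the nearest pair by a small margin, and the difference was -0.71 ± 0.20 (limma adjusted p = 0.667), or -0.45 without vehicle replicate 3. Gfra1, the co-receptor that binds GDNF for the Ret kinase, read -3.72, -4.50, -4.96 and -5.05 against -3.22, -2.60 and -3.26. It was lower by 1.53 on the log2 scale in the processed signal (SE 0.33, limma adjusted p = 0.379) and by 0.51 after normexp correction, and 2 of the 4 nintedanib arrays were well above background. Egfr, the receptor of EGF and amphiregulin, differed by -0.50 ± 0.24 with overlapping groups.

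Downstream of these receptors the output genes of the ERK kinases showed no common direction. Of 23 members 11 were higher and 12 lower, with a median of -0.043. The phosphatase Dusp6, which is induced by ERK and switches it off, differed by -0.16 ± 0.21, Etv4 by 0.026 ± 0.24 and Etv5 by -0.18 ± 0.23. Il17rd, a membrane inhibitor of FGF signalling, was the 1 member clear of overlap, at -1.04, -0.96, -1.60 and -1.10 against -0.73, -0.26 and -0.68. Its difference was -0.62 ± 0.21 (limma adjusted p = 0.917). In the PI3K and mTOR list 11 of 37 members were higher and 26 lower, with a median of -0.082 against -0.009 over all genes, and 0 were without overlap. The median was -0.045 without vehicle replicate 1 and -0.04 without vehicle replicate 3.

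The 15 genes with the lowest p among those higher with nintedanib, outside the interferon, cell cycle and cell type lists, were led by Apoc1, an apolipoprotein of lipoprotein particles that macrophages also make. Apoc1 read 6.14, 5.88, 6.29 and 6.42 with nintedanib and 4.50, 5.19 and 4.49 with vehicle. Every nintedanib value exceeded every vehicle value, and the difference was 1.46 ± 0.29, or 2.75-fold (limma adjusted p = 0.282). It was 1.26 within slide 1 and 1.93 within slide 2, and 1.58 after normexp correction. The B20 arrays averaged 5.82 ± 0.25 (SD, n = 4) and the T0 arrays 5.82 ± 0.58 (SD, n = 4), near the nintedanib mean of 6.18. The B20 mean lay above the vehicle mean for 13 of the 15 genes, and the nintedanib mean above the B20 mean for all 15. Both counts share arrays with the choice of the genes.

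Secreted proteins made up a further part of these 15. Comp, a cartilage and tendon matrix protein, read 1.40, 1.12, -0.29 and 1.01 against -0.60, -1.74 and -0.52, a difference of 1.77 ± 0.42 (limma adjusted p = 0.491). Serpina3n, a secreted serine protease inhibitor of the acute phase, read -0.63, 0.17, 0.36 and 0.75 against -0.68, -2.23 and -2.43. The lowest nintedanib array and the highest vehicle array of Serpina3n were close, and the difference was 1.94 ± 0.50 (limma adjusted p = 0.543). Cfb, factor B of the alternative complement pathway, read 2.97, 2.88, 2.61 and 2.86 against 2.18, 1.95 and 2.36, with no overlap and a difference of 0.67 ± 0.17 (limma adjusted p = 0.543).

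Enzymes, carriers and membrane proteins filled the rest. Slc25a34, a carrier of the mitochondrial inner membrane, was higher by 1.55 ± 0.33 and Ddo, which oxidises D-aspartate, by 1.05 ± 0.22 (limma adjusted p = 0.379 and 0.373). Ncald, a neuronal calcium sensor, was higher by 0.92 ± 0.22, and Siglec1, a sialic acid receptor of macrophages that is also known as an interferon-responsive gene, by 0.97 ± 0.23, or by 0.40 after normexp correction. The probes of Siglec1 disagreed in size, another one differing by 0.16. Gys2, the liver form of glycogen synthase, read -3.36, -2.92, -0.94 and -0.80 with nintedanib and -7.44, -6.46 and -4.00 with vehicle. The Gys2 difference of 3.96 ± 0.94 (limma adjusted p = 0.491) was 1.27 after normexp correction, and 1 of the 3 vehicle arrays was well above background. Another Gys2 probe differed by 1.91. Trpv1, the capsaicin channel of sensory nerves, Pcdhb11, a clustered protocadherin with close copies, Cd69, an activation marker of lymphocytes, and Cysltr2, a leukotriene receptor, were well above background on no vehicle array. In the processed signal they were at least 1.93-fold, 2.65-fold, 2.63-fold and 2.05-fold higher, the value of Pcdhb11 being its plain fold. After normexp correction the log2 differences of these genes were 0.16, 0.24, 0.19 and 0.13. Mill2 and Hs3st3a1 completed the 15, with 0.68 and 0.34 after that correction against 1.60 and 1.83 before it. Hs3st3a1 was well above background on 1 vehicle, 0 B20 and 1 T0 array. It passed the filter of at least 3 arrays only through the nintedanib arrays.

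The 15 lower genes with the lowest p were well above background on all 7 arrays in 12 cases. The B20 mean lay below the vehicle mean for 14 of the 15, and the nintedanib mean below the B20 mean for all 15. These counts too share arrays with the choice of the genes. Marcks, a protein kinase C substrate that binds actin and the membrane, read 3.63, 3.48, 3.60 and 3.66 with nintedanib and 3.98, 4.23 and 4.12 with vehicle. The groups lay apart with little spread in either, and the difference was -0.52 ± 0.13 (limma adjusted p = 0.492). Ptgs1, the constitutive cyclooxygenase of prostaglandin synthesis, read 0.85, 0.93, 0.65 and 0.71 against 1.46, 2.27 and 1.50, a difference of -0.96 ± 0.24 (limma adjusted p = 0.532). Fgd3, an exchange factor for the GTPase Cdc42, read -1.63, -1.32, -1.76 and -1.55 against -0.89, -0.40 and -0.22, a difference of -1.06 ± 0.23 (limma adjusted p = 0.379). Another Fgd3 probe differed by -0.56.

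Frmd4a, a scaffold of epithelial polarity, differed by -0.84 ± 0.18 (limma adjusted p = 0.379), with values of 0.37, 0.58, 0.18 and 0.62 against 1.08, 1.48 and 1.27. Another Frmd4a probe differed by -0.5. Panx1, a channel that releases ATP, differed by -0.72 ± 0.18 and Ipo7, an importer of nuclear proteins, by -0.53 ± 0.13. Ikzf1, a transcription factor of lymphocytes, was lower by 0.91 on the log2 scale, while 11 of 14 T and NK cell markers were higher. Plaa, Vps36, Sec16b, Dis3 and Brip1, which act in ubiquitin handling, endosomal sorting, export from the endoplasmic reticulum, RNA decay and DNA repair, lay between -0.88 and -0.58. The probes of Sec16b disagreed, with another one at 0.23 and the mean of both at -0.30. Another Plaa probe differed by -0.26. Fras1, a basement membrane protein, and Zfp940, a zinc finger gene with close relatives, were dim, and their differences of -1.79 and -1.10 were -0.70 and -0.24 after normexp correction.

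**Figure D2:**
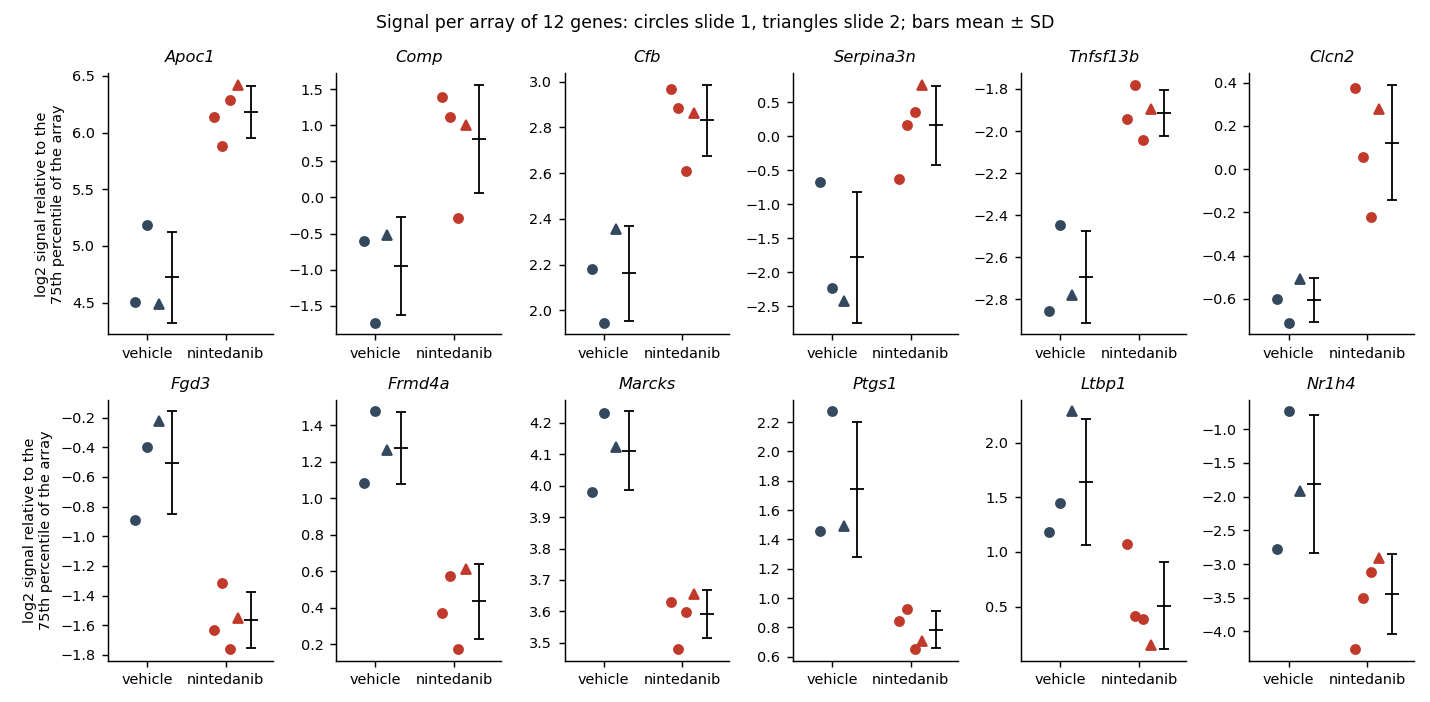
Signal of 12 genes on each vehicle array (dark) and nintedanib array (red), in log2 relative to the 75th percentile of the array; circles are slide 1, triangles slide 2, and bars are mean ± SD of 3 vehicle and 4 nintedanib arrays. The groups do not overlap in any panel; the margin is smallest for Serpina3n (-0.63 against -0.68), and no gene was called.

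Chemokines had the highest median of the 39 lists under each of the 5 scalings, though not within slide 2. Of 28 measured chemokines outside the interferon list 23 were higher, with a median of 0.617 (0.328 after normexp correction). Without overlap 5 lay above and 1 below, against 3.22% and 4.14% of all genes. Cxcl13, which draws B cells into follicles, read -4.28, -3.33, -3.78 and -4.55 with nintedanib and -7.69, -6.97 and -5.78 with vehicle. It was well above background on every nintedanib array and on no vehicle array. In the processed signal it was at least 4.59-fold higher (limma adjusted p = 0.576). Ccl1, a ligand of the receptor Ccr8, was well above background on 3 of 4 nintedanib arrays and no vehicle array. In the processed signal it was at least 2.38-fold higher (limma adjusted p = 0.388). Of the B20 and T0 arrays, 2 of B20 were well above background for Cxcl13 and 0 for Ccl1. Both genes therefore passed the filter, at least 3 arrays well above background, only through the nintedanib arrays. Both are counted among the 23 and the 5, so these counts were in part fixed by the filter. After normexp correction the log2 differences of Cxcl13 and Ccl1 were 0.49 and 0.21. Their B20 means were -4.57 and -5.66, against vehicle means of -6.81 and -6.54.

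Other chemokines were well above background on all 7 arrays. Ccl12, a monocyte attractant, read 0.34, 0.48, 0.63 and 0.74 against -0.77, -0.026 and -0.63, a difference of 1.02 ± 0.41 (limma adjusted p = 0.975). Cxcl12, the stromal ligand of Cxcr4, named after its values were seen, read 1.56, 2.35, 1.70 and 1.80 against 1.31, 1.25 and 1.03, with B20 at 0.99. Its difference was 0.66 ± 0.34 (limma adjusted p = 0.999). Ccl25, a thymic and gut chemokine, was the 1 member clear below, by 0.52 on the log2 scale.

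Chemokine receptors followed the same direction, with 17 of 20 higher, a median of 0.396 (0.17 after normexp correction) and 2 without overlap, both above. Cxcr6, a receptor of tissue T cells, read -0.77, -1.17, -1.27 and -1.12 against -2.05, -1.57 and -1.83. Its difference of 0.74 ± 0.26 (limma adjusted p = 0.917) was 0.46 after normexp correction. Ccr7, which guides lymphocytes and dendritic cells to lymph nodes, read -1.33, -1.29, -1.03 and -1.50 against -2.44, -1.68 and -2.62, a difference of 0.96 ± 0.44 that was 0.60 after normexp correction. The B20 means of Cxcr6 and Ccr7 were -1.28 and -1.13.

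Interleukins and their receptors numbered 53 higher of 74, with a median of 0.20, 8 above without overlap and 2 below. Over all genes 3.22% lay above and 4.14% below without overlap. The interleukin median was 0.07 after normexp correction and 0.064 with the authors' values. Il2rg, the chain that the receptors of IL-2 and related cytokines share, read -2.67, -1.88, -2.76 and -1.99 against -2.69, -3.35 and -3.83. Its difference was 0.97 ± 0.33 (limma adjusted p = 0.915), and that of Il2ra, the high-affinity IL-2 receptor chain, was 1.02 ± 0.38. After normexp correction they were 0.46 and 0.27, and Il2ra was well above background on 1 of the 3 vehicle arrays. Ebi3, a subunit of IL-27 and IL-35, was higher by 0.50 ± 0.18. Csf3, the neutrophil growth factor G-CSF, was clear below, at -4.75, -3.80, -4.43 and -4.78 against -2.34, -2.33 and -3.41. Csf3 is named after its values were seen, and its difference of -1.74 ± 0.75 had a limma adjusted p of 0.982.

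Kinases of blood cells stood beside these receptors. Zap70, which starts signalling at the T cell receptor, was higher by 0.68 ± 0.24 without overlap (limma adjusted p = 0.917), and by 0.31 after normexp correction. Ptk2b, a focal adhesion kinase of blood and nerve cells, read 0.81, 0.62, 0.029 and 0.64 against -0.32, 0.08 and -0.19, a difference of 0.67 ± 0.22 (limma adjusted p = 0.878) with 1 nintedanib array inside the vehicle range. Another Ptk2b probe differed by 0.09.

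Markers of blood cells gave the background of these lists. T and NK cell markers were higher in 11 of 14, with mean levels per array of -1.85 to -1.01 with nintedanib and -1.95 to -1.66 with vehicle, and summed signals of 9.91 to 20.1 and 11.3 to 13.6. The defining T cell gene Cd3e differed by 0.046 ± 0.26. Of the B and plasma cell markers 6 of 8 were higher, with summed signals of 1.80 to 2.77 and 1.82 to 2.48, and Cd79a differed by 0.10 ± 0.40. Macrophage markers were higher in 10 of 11, with a median of 0.223 and summed signals of 87 to 116 against 85.6 to 104, and mast cell markers in 7 of 7, with a median of 0.926 and 18.4 to 30.7 against 13.8 to 22.7. Without vehicle replicates 1 or 2 the mast cell median was 0.503 or 0.525, and without replicate 3 it was 1.45. It was 1.54 within slide 1 but -0.118 within slide 2, and 0.463 after normexp correction. The part of these cells in the chemokine and receptor values was not tested.

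In the TNF family 24 of 38 members were higher, with a median of 0.111 that was -0.020 without vehicle replicate 2. Tnfsf13b, the B cell survival factor BAFF, read -1.94, -1.78, -2.05 and -1.90 with nintedanib and -2.85, -2.45 and -2.78 with vehicle. The groups were well apart, with a difference of 0.78 ± 0.21 (limma adjusted p = 0.645) that was 0.50 after normexp correction. Tnfrsf1b, the second TNF receptor, lay the other way, at -2.13, -2.12, -2.54 and -2.35 against -1.73, -1.94 and -1.65, a difference of -0.51 ± 0.15 (limma adjusted p = 0.79).

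Innate sensing genes were higher in 32 of 44, with a median of 0.088. Of them 5 lay clear above and 1 below, against 3.22% and 4.14% of all genes. Irak3, an inhibitory kinase of Toll-like receptor signalling, read 0.08, 0.54, 0.09 and 0.46 against -0.30, -0.13 and -0.26. Its difference was 0.52 ± 0.16 (limma adjusted p = 0.8), and Nod2, a sensor of bacterial peptidoglycan, was higher by 0.63 ± 0.21, or by 0.30 after normexp correction. Stat3, the transcription factor of IL-6 signalling, read 5.33, 5.02, 4.60 and 4.85 against 5.39, 5.10 and 5.72, overlapping, with a difference of -0.45 ± 0.25. It was -0.30 without vehicle replicate 3, and another Stat3 probe differed by 0.04.

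Receptors for lipids, nucleotides and amines were split and held several dim members with large differences. Of the 40 lysophospholipid, purine and succinate receptors 24 were higher, with a median of 0.052 that turned negative under 1 scaling. Ffar4, a receptor for long-chain fatty acids, read -5.71, -4.62, -4.21 and -4.12 against -7.66, -6.02 and -6.78. With 3 of 4 nintedanib arrays and no vehicle array well above background it was at least 2.61-fold higher in the processed signal (limma adjusted p = 0.491). Its log2 difference was 0.36 after normexp correction. P2ry1, an ADP receptor, lay clear below, at -1.09, -0.96, -0.88 and -0.90 against -0.11, -0.49 and -0.75, a difference of -0.51 ± 0.19 (limma adjusted p = 0.962).

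Hormone and amine receptors numbered 31 higher of 53. Adrb3, the adrenergic receptor of fat cells, read -1.73, -2.19, -1.15 and 1.12 against -5.60, -3.58 and -1.89, a difference of 2.70 ± 1.03 (limma adjusted p = 0.962) and 1.38 after normexp correction. Without vehicle replicate 1 it was 1.75, another Adrb3 probe differed by 1.22, and 2 of the 3 vehicle arrays were well above background. Hrh1, a histamine receptor, differed by -0.67 (-0.33 after normexp correction), and another of its probes by 0.13. In the eicosanoid list 15 of 34 were higher, and beside Ptgs1 the lower members included Lta4h, which makes leukotriene B4, at 2.65, 2.64, 2.66 and 2.69 against 2.79, 3.09 and 3.37. Its nintedanib values were nearly equal, and the difference was -0.42 ± 0.16 (limma adjusted p = 0.929), or -0.28 without vehicle replicate 3.

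Adrb3, Gys2, Ffar4, Cfd, Cyp2e1 and Ces1f are set here beside the markers of fat, among which Adrb3 and Cfd are themselves counted. Ffar4 on the vehicle arrays and Adrb3 on the nintedanib arrays did not follow the order of the marker levels. All 20 adipocyte markers were higher with nintedanib, with a median of 1.81 (1.33 after normexp correction), 3 of them without overlap, and 0 called. Their mean level was -0.65, -0.30, 1.23 and 2.02 on the nintedanib arrays and -2.13, -1.07 and -0.39 on the vehicle arrays, and their summed signal ran from 65.0 to 395 against 35.1 to 96.4. The defining gene Adipoq read 0.81, 1.09, 2.88 and 3.98 against -2.42, 0.30 and 1.24. Cyp2e1, a cytochrome of ethanol and drug oxidation, read -1.13, -0.43, 0.87 and 1.96 against -3.51, -3.04 and -1.61, in the same order of arrays within each group. Its difference was 3.03 ± 0.84 (limma adjusted p = 0.645) and 2.15 after normexp correction. Cfd, which is both complement factor D and an adipocyte marker, differed by 2.20 ± 0.88, by 1.19 without vehicle replicate 1 and by 3.08 without vehicle replicate 3. Ces1f, a carboxylesterase with close copies, was at least 5.66-fold higher in the processed signal, from 3 of 4 nintedanib arrays and no vehicle array above background. It differed by 0.74 after normexp correction. The part of fat tissue in these values was not tested.

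Other tissue markers also differed in level. Haemoglobin and other erythroid markers were higher in 6 of 6, with a median of 0.984 and summed signals of 234 to 585 against 148 to 257. Skeletal muscle markers were higher in 20 of 23, with a median of 0.831, but the median was 2.22 within slide 1 and -2.23 within slide 2. Endothelial markers were higher in 6 of 20, with a median of -0.131 and summed signals of 30.9 to 42.9 against 38.5 to 50.7. The endothelial median was 0.024 without nintedanib replicate 1, -0.26 without nintedanib replicate 2, -0.05 without nintedanib replicate 4 or vehicle replicate 3, -0.22 without vehicle replicate 2 and -0.007 within slide 1.

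**Figure D3:**
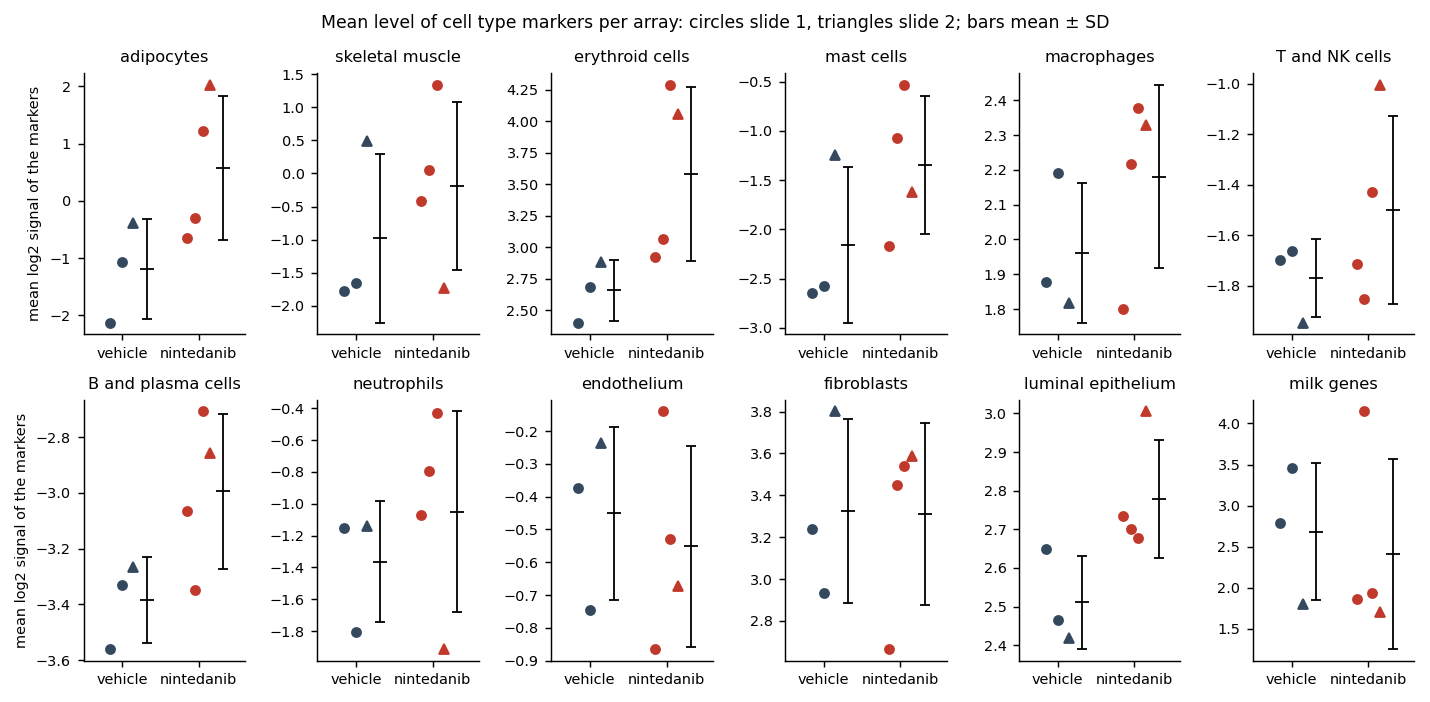
Mean log2 level, relative to the 75th percentile of the array, of the markers of 12 cell types on each vehicle array (dark) and nintedanib array (red); circles are slide 1, triangles slide 2, and bars are mean ± SD of 3 vehicle and 4 nintedanib arrays. Adipocyte markers run from -2.13 to -0.39 with vehicle and from -0.65 to 2.02 with nintedanib, and endothelial and fibroblast markers overlap throughout.

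The TGF-beta, Wnt, Notch, Hedgehog and Hippo lists had medians between -0.032 and 0.129, and those of Hedgehog and Hippo changed sign under 3 of the 4 other scalings. Ltbp1, which holds latent TGF-beta in the matrix, read 1.07, 0.42, 0.39 and 0.15 with nintedanib and 1.18, 1.45 and 2.29 with vehicle. All 4 values lay below, the first by a small margin, and the difference was -1.13 ± 0.29 (limma adjusted p = 0.561). It was -0.69 within slide 1, -2.13 within slide 2 and -0.81 without vehicle replicate 3. Wif1, a secreted Wnt inhibitor, read -1.27, -2.16, -1.70 and 1.16 against 1.29, 2.72 and -0.32. The 3 nintedanib arrays of slide 1 were low, and on slide 2 the order was turned (1.48), so the difference of -2.22 ± 0.79 (limma adjusted p = 0.917) rested on slide 1. Dkk3, a secreted relative of the Dickkopf Wnt inhibitors, was lower without overlap, at 0.90, 0.91, 0.92 and 1.17 against 1.54, 1.42 and 1.38, a difference of -0.47 ± 0.16.

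Hedgehog ligands and receptors held members that lay above. Dhh, a ligand made by Schwann and gonadal cells, read 2.10, 1.36, 0.043 and -0.20 against -0.55, -1.53 and -0.56, with no overlap, and its difference was 1.71 ± 0.52 (limma adjusted p = 0.793). It was 2.21 within slide 1 but 0.36 within slide 2. Boc, a co-receptor of Hedgehog proteins, read 2.09, 2.26, 1.82 and 2.70 against 1.67, 1.52 and 1.51, a difference of 0.65 ± 0.23 (limma adjusted p = 0.919). Fzd9, a Wnt receptor, was higher by 0.53 ± 0.21, also without overlap.

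Nuclear receptors were even, with 22 of 41 higher, and 2 lay clear below. Nr1h4, the bile acid receptor FXR, read -4.26, -3.51, -3.12 and -2.92 against -2.77, -0.74 and -1.92. Its difference of -1.64 ± 0.44 (limma adjusted p = 0.624) was -0.86 after normexp correction.

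Ion channels had 5 of 43 members clear above and secreted epithelial proteins 6 of 49, and both had 0 clear below. Over all genes 3.22% lay clear above and 4.14% clear below. In the potassium, sodium and chloride channel list 26 of 43 were higher, with a median of 0.207 that was 0.047 after normexp correction. Clcn2, a chloride channel of epithelia, read 0.38, 0.06, -0.22 and 0.28 against -0.60, -0.71 and -0.51, a difference of 0.73 ± 0.20 (limma adjusted p = 0.645). Kcnk5, a two-pore potassium channel, read 0.55, 0.79, 0.52 and 0.73 against 0.36, -0.23 and -0.42, a difference of 0.74 ± 0.21 (limma adjusted p = 0.645). Of the 49 mucins and secreted epithelial proteins 30 were higher, 6 without overlap, with a median of 0.171 that was 0.010 without vehicle replicate 2 and -0.004 within slide 1. Klk8, a secreted kallikrein protease, read -0.39, -0.65, -1.0 and -1.36 against -1.31, -2.14 and -2.49. It overlapped at 1 pair of arrays, and its difference was 1.14 ± 0.38 (limma adjusted p = 0.89). Among junction proteins Cldn10, a claudin of ion-selective junctions, was higher by 0.97 ± 0.32, and Gja1, connexin 43, lower by 0.85 on the log2 scale with 1 vehicle array far above the rest. Without vehicle replicate 1 the Gja1 difference was -0.39.

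**Figure D4:**
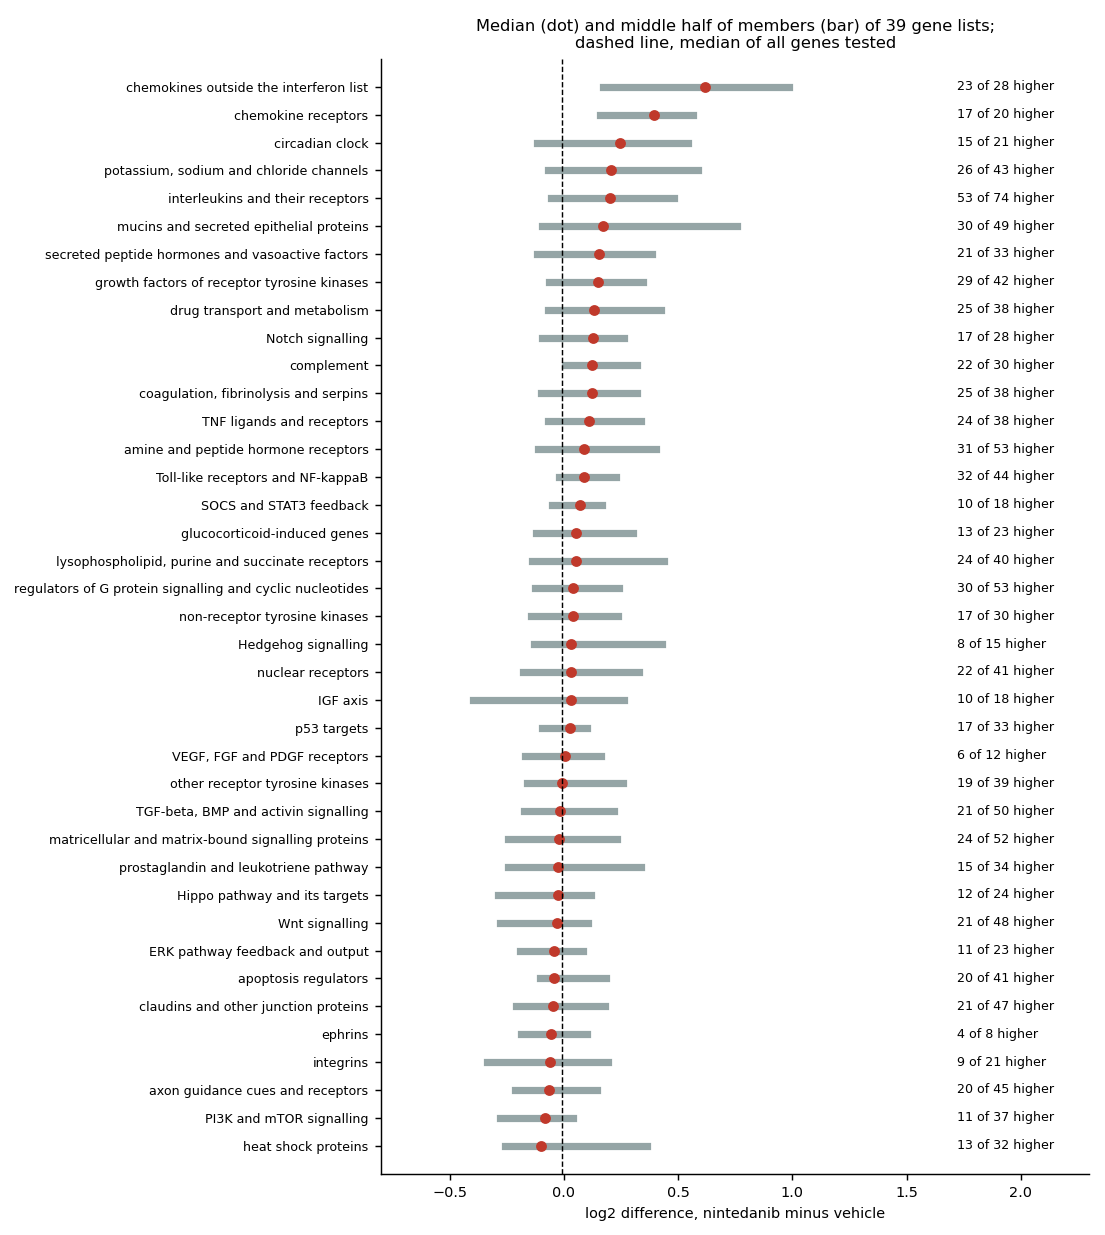
Median log2 difference, nintedanib minus vehicle, of 39 lists of genes by function (dots), with bars from the lower to the upper quartile of the members and the count of members higher at the right; the dashed line is the median of all 28041 genes (-0.009). Chemokines (0.617) and their receptors (0.396) have the highest medians with this scaling, and heat shock proteins (-0.101) the lowest, a rank that is lost with quantile normalisation.

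Heat shock proteins had the most members clear below of the 39 lists, 6 of 32 against 4.14% of all genes. They also had 3 clear above, against 3.22% of all genes. Their median was the lowest of the lists in the processed signal but not with quantile normalisation (-0.032, against -0.104 for axon guidance), normexp correction (-0.008 against -0.066) or the authors' values (-0.008 against -0.066). These chaperones fold proteins, and the factor Hsf1 induces many of them through repeated heat shock elements. Of 32 measured members 13 were higher and 19 lower, with a median of -0.101 that was -0.06 without nintedanib replicate 1 and -0.034 without vehicle replicate 1. There were 6 members below without overlap (Hsp90aa1, Hsph1, Dnaja1, Hspd1, Hspa4 and Dnajc3) and 3 above (Hspb2, Hspa12a and Cryab), and the members beyond Hsp90aa1, Hspd1 and Hspa4 are named after their values were seen.

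The promoter sequences of 3 members that lay below and of Hspb1, which lay above with overlap, are shown because each holds the heat shock element searched for, GAANNTTC or TTCNNGAA, in capitals. Each window is the 250 bases before a transcription start in RefSeq (GRCm38.p6), 5′ to 3′ along the gene; of several starts 1 is shown.
Hspd1, chr1:55087933-55088182, minus strand: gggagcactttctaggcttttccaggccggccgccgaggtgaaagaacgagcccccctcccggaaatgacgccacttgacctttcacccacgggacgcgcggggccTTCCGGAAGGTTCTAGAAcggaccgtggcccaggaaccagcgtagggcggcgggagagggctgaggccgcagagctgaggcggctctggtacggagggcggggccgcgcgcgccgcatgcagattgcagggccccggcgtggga
Hsph1, chr5:149636337-149636586, minus strand: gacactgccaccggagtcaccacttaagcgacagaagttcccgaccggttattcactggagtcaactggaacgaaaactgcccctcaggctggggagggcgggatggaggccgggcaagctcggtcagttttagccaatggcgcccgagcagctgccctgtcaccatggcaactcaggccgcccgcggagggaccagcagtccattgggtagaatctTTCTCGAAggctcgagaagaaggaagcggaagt
Dnaja1, chr4:40722218-40722467, plus strand: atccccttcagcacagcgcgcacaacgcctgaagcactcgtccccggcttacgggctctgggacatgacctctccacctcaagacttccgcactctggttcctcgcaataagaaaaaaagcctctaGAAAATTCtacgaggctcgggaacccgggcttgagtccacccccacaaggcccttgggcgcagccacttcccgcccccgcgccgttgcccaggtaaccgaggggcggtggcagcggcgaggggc
Hspb1, chr5:135887669-135887918, plus strand: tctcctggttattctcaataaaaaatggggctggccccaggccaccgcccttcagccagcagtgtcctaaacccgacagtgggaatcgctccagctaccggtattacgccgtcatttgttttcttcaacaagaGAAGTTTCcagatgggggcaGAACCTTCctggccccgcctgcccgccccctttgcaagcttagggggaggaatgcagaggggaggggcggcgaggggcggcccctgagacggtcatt
The Hspd1 window holds 3 matches that overlap as 1 run of alternating repeats, the Hspb1 window 2 separate matches and the other windows 1 each. The 2 forms of the element were searched together on the strand shown, and since each reads the same on the opposite strand both strands are covered. The other Hspd1 window and the other 2 windows of Dnaja1, from further starts, hold 0 matches. The element is in 12.8% of 32851 mouse promoter windows of this length. Counted by gene, as present in any window, it is in 14.5% of 27025 genes and in 10 of the 24 heat shock members that have a window: 5 of 11 that were higher and 5 of 13 that were lower. A match is a description of the sequence only.

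Beside these sequences, Hspd1, the mitochondrial chaperonin, read 4.99, 5.05, 5.08 and 5.00 with nintedanib and 5.46, 5.40 and 5.42 with vehicle. Each group was tight, they did not overlap, and the difference was -0.40 ± 0.14 (limma adjusted p = 0.919). Hsph1, a large cytosolic chaperone, read 3.01, 2.91, 2.74 and 2.64 against 3.70, 3.28 and 3.19, a difference of -0.57 ± 0.26. Dnaja1, a co-chaperone of Hsp70, read 5.36, 5.62, 5.71 and 5.73 against 6.32, 5.84 and 5.97, a difference of -0.44 ± 0.21.

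Hsp90aa1, the inducible Hsp90, read 5.55, 5.35, 5.15 and 5.05 against 5.99, 5.86 and 6.20, a difference of -0.74 ± 0.23 (limma adjusted p = 0.807). Hspb1, a small heat shock protein that carries the same element in its window, read 6.53, 6.20, 6.08 and 6.12 against 6.19, 5.32 and 5.89. It was higher by 0.43 ± 0.27, so members with the element lay on both sides. Cryab, a small heat shock protein abundant in muscle and lens, read 3.66, 3.69, 3.69 and 3.49 against 3.17, 2.17 and 2.82, a difference of 0.91 ± 0.50.

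Clock genes were higher in 15 of 21, with a median of 0.245. Of them 3 lay clear above (Dbp, Tef and Cry2) and 0 below, against 3.22% and 4.14% of all genes. The median was 0.081 after normexp correction, 0.129 without vehicle replicate 2 and -0.058 within slide 2. Clock and Arntl bind the E-box CACGTG to drive the Per and Cry repressors and the PAR bZIP factors Dbp and Tef. The Tef window is shown as that of a member clear above, with the E-box in capitals.
Tef, chr15:81811164-81811413, plus strand: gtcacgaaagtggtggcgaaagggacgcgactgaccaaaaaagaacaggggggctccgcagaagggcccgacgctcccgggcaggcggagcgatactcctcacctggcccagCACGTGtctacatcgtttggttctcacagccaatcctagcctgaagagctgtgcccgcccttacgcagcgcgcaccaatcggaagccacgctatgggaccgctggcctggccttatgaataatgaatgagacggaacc
The E-box, which reads the same on both strands, is in 6.02% of all windows of this length. By gene, in any window, it is in 6.86% of all genes and in 4 of the 17 clock members that have one: 3 of 12 that were higher and 1 of 5 that were lower. Of the 3 members clear above, Tef alone holds it, with no match in the Dbp and Cry2 windows. Tef read 4.46, 4.17, 4.13 and 4.44 with nintedanib and 3.56, 3.45 and 3.85 with vehicle, a difference of 0.68 ± 0.29 (limma adjusted p = 0.982). Cry2, a repressor of the clock, read 2.90, 2.87, 2.24 and 2.59 against 2.15, 2.17 and 2.0, a difference of 0.54 ± 0.23. Dbp, named after its values were seen, read 2.78, 2.25, 2.34 and 3.49 against 1.83, 1.57 and 1.66, with B20 at 1.79 and T0 at 3.65.

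**Figure D5:**
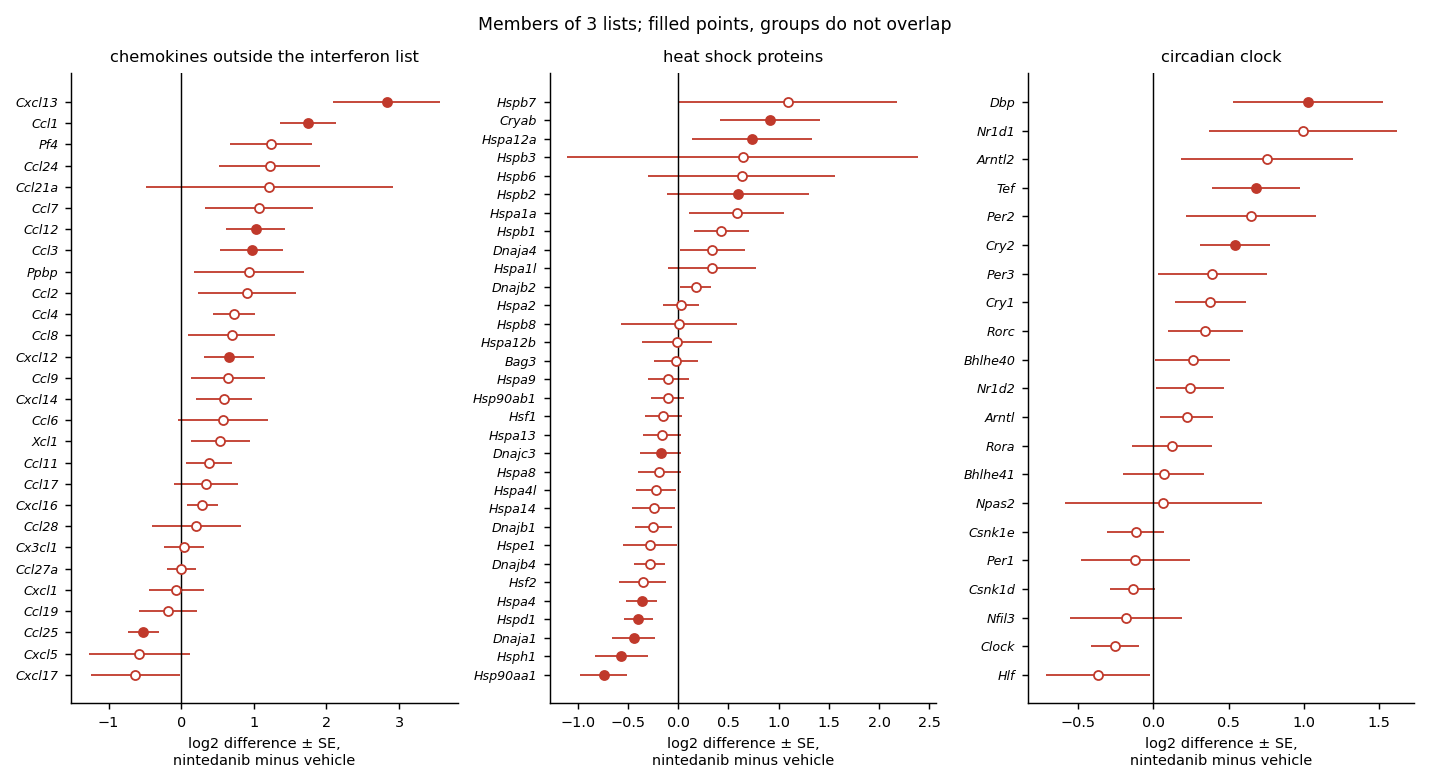
Log2 difference, nintedanib minus vehicle, with its standard error for each measured member of the chemokine, heat shock and circadian clock lists; filled points are genes whose 4 nintedanib and 3 vehicle values do not overlap. Of the chemokines 5 filled points lie above 0 and 1 below, of the heat shock proteins 3 above and 6 below, and of the clock genes 3 above and 0 below. Over all genes 3.22% lay above and 4.14% below without overlap. The chemokines Cxcl13 and Ccl1 passed the filter on dim probes only through the nintedanib arrays.

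Genes of cell death were even, with 20 of 41 apoptosis regulators and 17 of 33 p53 targets higher. Bmf, which frees pro-death proteins by binding Bcl2 relatives, read 2.53, 2.58, 2.44 and 3.01 with nintedanib and 3.04, 3.68 and 3.47 with vehicle. It did not overlap, by a margin of the second decimal, and its difference was -0.76 ± 0.22 (limma adjusted p = 0.678). Bik, another member of that family, was higher by 0.63 ± 0.21. Bcl2l1, the survival protein Bcl-xL, named after its values were seen, read 4.82, 4.85, 4.55 and 4.97 against 4.41, 4.34 and 4.43, a difference of 0.40 ± 0.19 (limma adjusted p = 0.999).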

How the data were processed

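Per the labels, total RNA of mammary tumours was labelled with Cy3 and hybridised to 1-colour Agilent arrays. Per the file headers the arrays (design 028005, grid on mm9) were read with Feature Extraction 10.7.3.1. The values used are the spot intensity (processed signal, background-subtracted) that the authors deposited, not normalised between arrays. The flags for well above background, saturation and outliers are other values, taken as 0 or 1 per the file headers. The authors' deposited log2 table gives no method in the sources used here; normexp correction (offset 50) and quantile normalisation of the deposited signals gave nearly the same values (median r 0.99992), so its scale is log2, its genes are not centred and a higher value is a brighter spot; its column medians lay between 6.616 and 6.627.

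Control and outlier spots were left out, spots of a probe were averaged, and each array's log2 signal had its 75th percentile subtracted. For 82 probe values no spot was left, and they were filled with the probe's mean over the other arrays, 0 of them in named genes. Probes well above background on at least 3 arrays were kept, the probe with the highest mean standing for a gene. Names came from a RefSeq table (GRCm38.p6, names and promoter sequences only): 26056 probes matched a symbol and 29625 did not. Tested were 28041 genes, 16111 with a symbol. No spot was saturated, and the number of arrays limits the precision.

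One model of 4 group means over 15 arrays was fitted with limma 3.58.1 in R 4.3.3 (lmFit, eBayes, two-sided, Benjamini-Hochberg over all genes, call at 0.05). It was also run on simulated normal noise with each gene's fitted spread, independent between genes and without slide or array effects. There it called 22% of genes changed by 1 log2, 80% of those changed by 2, and 8 unchanged genes. The real arrays differ from that setting, so these shares may not hold for them and say nothing on the absence of changes. T0 replicate 4 carries 2 treatment labels and was kept in T0 by its title. The 39 function lists and 17 cell type lists, and the members, were chosen with earlier results of these data known; no list was tested. Named genes are the 15 with the lowest p in each direction (outside the interferon, cell cycle and cell type lists, with a proper symbol and well above background on every array of the higher group), up to 3 members per function list (the lowest p, and others with an unadjusted p under 0.05) and the 12 kinases nintedanib is known to inhibit. Any other gene named was chosen after its values were seen. Some named genes are not reported here. Of 1528 list members, 192 did not pass the filter or had no probe.

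Alternatives were other scalings, normexp with quantile normalisation, the authors' values, other filters on dim probes, slide as a block or alone, the replicate number as a block, fewer arrays in the fit, array weights, the mean of a gene's probes, and each array left out. The mean signal that normexp was to use is not analysed here, so the median signal took its place. Replicate numbers did not pair the nintedanib and vehicle arrays: deviations from the group means correlated at -0.029, -0.043 and 0.149 for numbers 1 to 3.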

Additional observations from a re-analysis of the deposited data

Results flagged for a closer look

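Values were flagged where 1 of the 4 nintedanib arrays stood apart from the other 3 by more than the 95% critical value of Dixon's test, which chance does in about 1 in 20 groups. Of 167 groups tested, 8 were flagged, which is near that rate. Replicate 1 was high for Ptk7 (2.34, the next array at 2.04) and Dtx3 (1.17 against 0.64), a Notch pathway ubiquitin ligase, and low for the mean level of the fibroblast markers (2.67 against 3.45). Replicate 2 was high for Thpo (-3.39 against -4.11), for Flt1 (1.27 against 0.35) and for the mean level of the milk genes (4.15 against 1.94). Replicate 3 was low for Sema4g (-2.09 against -1.25), and replicate 4 was high for Dkk3 (1.17 against 0.92). The causes were not tested.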

How the results depend on the processing

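The count of 0 genes called between nintedanib and vehicle became 12 with array weights, 10 of them in the interferon list and 0 in a function list, and lay between 0 and 2 when 1 array was left out: 2 without T0 replicate 4 and 1 (Ppp4r4) without vehicle replicate 2. It stayed at 0 under the other alternatives that give a test, including the fit with the replicate block (0 called, 1321 genes at an unadjusted p under 0.05, lowest adjusted p 0.144), slide as a block and slide 1 alone; slide 2 holds 1 array of each group and gave values only. Nintedanib against B20 gave between 0 and 1 calls with 1 array left out, the 1 without vehicle replicate 1 (lowest adjusted p 0.00501), and 0 in the other settings tried for it. Genes at an unadjusted p under 0.05 numbered 1354, against 672 with median scaling, 2518 with array weights and 857 without vehicle replicate 3; the cause was not tested. Of 2438 values of the 111 named genes under alternatives, 2413 kept their direction, 0 passed the threshold, and 102 genes kept their sign throughout. Most of these genes were chosen for a low p in these same arrays, and several alternatives leave a gene's difference unchanged. These counts were therefore partly fixed in advance and do not measure how firm the differences are. Wif1 was 1.48 on slide 2. With 1 array left out, Flt1 ran from -0.38 to 0.20, Kdr from -0.44 to 0.036, Fgfr1 from -0.027 to 0.54, Pdgfra from -0.039 to 0.20, Pdgfrb from -0.29 to 0.026, Lck from -0.052 to 0.15, Lyn from -0.23 to 0.22 and Src from -0.86 to 0.049; vehicle replicate 3 was the array left out for the reversed end of Flt1, Kdr, Pdgfrb, Lck, Lyn and Src. Flt1 was 0.30 on slide 1 and 0.17 with array weights, Fgfr1 -0.41 and Pdgfra -0.12 on slide 2, and Lck -0.15 and Src 0.073 on slide 1. Lyn was -0.039 with median scaling, -0.048 with normexp correction or the authors' values, -0.16 on slide 1, -0.031 with the replicate block and -0.13 with array weights. The causes were not tested. Median scaling moved the median of all genes from -0.009 to -0.072, and 43 of 58 list medians changed sign under no scaling. Signal over background limits dim genes: 34 of the 111 had under 50% of their difference after normexp correction, and 12 of these were well above background on all 7 arrays.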
